A study of Homo sapiens and Mus musculus with 22 samples.

Results

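The cytosolic ribosomal protein genes encode the protein subunits of the ribosome that translates nuclear-encoded mRNA. They were taken by gene name from every deposited FPKM table: all RPL and RPS names of a plain subunit form (with paralogs such as RPS27L and RPL7L1), together with RPLP0, RPLP1, RPLP2 and RPSA, in human and mouse. S6 kinase genes were not included, nor were loci listed under several joined symbols. The rule found 78 members among 24549 symbols in the table of the SETDB1 set, 64 among 23760 in that of the ATG5 set and 82 among 23849 in that of the cGAS set. In all, 87 distinct symbols were found, of which 59 were listed in all 3 sets. RPL names of the large subunit made up 41 members in the SETDB1 set, 33 in the ATG5 set and 44 in the cGAS set. RPS names of the small subunit made up 28, 23 and 31, and paralogs 9, 8 and 7. A further 8, 22 and 2 ribosomal protein loci of these tables were joined with a neighbouring gene or small RNA and are given separately where used.

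Sequenced poly(A) RNA came from U2OS cells, an established line of human osteosarcoma, and from the mouse fibroblast line L929. The SETDB1 set held mock-treated U2OS cells of the knockouts SETDB1 KO1 and SETDB1 KO2 and of WT, with 2 libraries per group. The ATG5 set held U2OS cells labelled ATG5 KD (knockdown) or Vector, each with BIX-01294 (BIX) or mock, and each of its 4 values stands for 2 replicates joined by the authors in a way the labels do not state. The cGAS set held L929 cells labelled cGAS KO or cGAS WT, each with BIX or mock, with 1 library per group. BIX, which inhibits EHMT1 and EHMT2, enzymes that methylate H3K9, was used at 10 µM over 12 h. The treatment note speaks of BIX for all cells, whereas some titles read mock, and the titles were followed. The labels do not state how the knockouts and the knockdown were made, or whether each KO is a clone. The series has 22 samples, of which 14 are RNA samples and 8 are chromatin samples that were not analysed here.

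Ribosomal proteins are made in roughly equal numbers, since each ribosome holds a single copy of nearly all of them, and their mRNAs are among the most abundant of a growing cell. Most of these mRNAs begin with a 5′ terminal oligopyrimidine (TOP) tract, a C at the cap site followed by a run of C and T, through which the kinase mTOR and the RNA-binding protein LARP1 control their translation. Paralogs such as RPL22L1, RPL39L and RPS27L stand in for or compete with the usual subunit in some tissues or states.

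The annotated starts of the human members showed this tract, and the windows of genes named below are printed to let the tract be compared between core genes and paralogs. RefSeq promoter windows (build GRCh38.p14, 250 bases before and 50 after the start) were matched by symbol for 62 of the 79 members listed in either U2OS set. Where a gene had several windows, the one with the longest tract was taken, for members and for all other genes. A C at the start followed by pyrimidines, at least 5 bases in all, was present in 41 of the 55 core genes among them (74.5%) and in 2 of the 7 paralogs (28.6%). The same was found in 5.14% of the promoters of all 27305 symbols, and in 7.45% of the 8714 promoters whose genes had an FPKM of at least 1 in both WT libraries. The printed windows run from 10 bases before the annotated start to 20 bases from it, and capitals mark the pyrimidine tract where it reached 5 bases.
RPLP1: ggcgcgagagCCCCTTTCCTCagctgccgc
RPL24: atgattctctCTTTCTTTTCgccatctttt
RPS13: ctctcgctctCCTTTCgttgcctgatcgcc
RPL19: tctccccttcgcagataatgggaggagccg
RPL22: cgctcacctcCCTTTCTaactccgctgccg
RPL22L1: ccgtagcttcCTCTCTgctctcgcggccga
RPS27: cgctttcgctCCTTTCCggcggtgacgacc
RPS27L: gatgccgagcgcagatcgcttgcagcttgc
RPL10: ggaggagcgcCTCTTTCCCTTCggtgtggt
RPL10L: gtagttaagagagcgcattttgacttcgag
RPL7L1: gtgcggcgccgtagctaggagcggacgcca

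These windows lie around the annotated first base of each transcript and so hold the end of the promoter and the first bases of the 5′ untranslated region. RPLP1 is at chr15:69452808-69452837 on the plus strand, RPL24 at chr3:101686699-101686728 on the minus strand, RPS13 at chr11:17077648-17077677 on the minus strand and RPL19 at chr17:39200273-39200302 on the plus strand. RPL22 is at chr1:6199576-6199605 and RPL22L1 at chr3:170870176-170870205, both on the minus strand. RPS27 is at chr1:153990752-153990781 on the plus strand and RPS27L at chr15:63157458-63157487 on the minus strand. RPL10 is at chrX:154398367-154398396 on the plus strand, RPL10L at chr14:46651762-46651791 on the minus strand and RPL7L1 at chr6:42879606-42879635 on the plus strand. At the annotated start the paralogs RPS27L, RPL10L and RPL7L1 lacked the tract, RPL22L1 had it, and RPL19 was a core gene without it. A pyrimidine run that began at another base was not counted. The RPL19 window, for example, holds such a run that ends just before the annotated start. Genes counted as without the tract may therefore include some whose annotated start is displaced. In the whole windows, searched on both strands, the motif CCGGAAG, a core of ETS factors such as GABPA, was present in 32.7% of the 55 core members and in 10.6% of all promoters. The motif AAGATGG, a core of YY1, was found in 14.5% of core members and 6.02% of all promoters. GGGCGG, bound by SP1, was found in 56.4% of core members and 43.9% of all. The motif CACGTG, an E-box of MYC and MAX, was found in 5.45% of core members and 7.21% of all. TATAAA, the element bound by TBP, was found in 9.09% of core members and 12.1% of all. A match describes the letters only.

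Target genes and markers were checked once for the whole series. SETDB1 RNA fell to 6.46 ± 0.797 FPKM in KO1 and 7.12 ± 0.321 in KO2, against 9.65 ± 0.464 in WT (mean ± SD, n = 2 libraries each), a difference of -0.45 on the log2 scale in the mean of the KOs (limma adjusted p = 0.0432). ATG5 RNA was at 10.1 FPKM in the mock value labelled ATG5 KD, against 11.3 in vector mock, and at 13.4 with BIX in the value labelled ATG5 KD, against 12.3 in vector with BIX. ATG5 RNA therefore did not bear out the knockdown label. Mb21d1, the mouse cGAS gene, was at 1.19 FPKM in the mock library labelled cGAS KO, against 2.82 in cGAS WT mock, and with BIX at 4.41 in the library labelled cGAS KO, against 3.47 in cGAS WT. All 5 mesenchymal markers of U2OS were expressed (VIM between 751 and 1041 FPKM). Among epithelial markers in U2OS, the keratins KRT8 and KRT18 were also high, at 383 to 633 and 213 to 537. The other epithelial markers were low there, with CDH1 at 0.157 to 0.603 FPKM and EPCAM at 1.83 to 3.68. In L929, Vim and S100a4 were high and Thy1 was listed at 0 in all 4 libraries. The leukocyte genes CD3E and PTPRC were below 1 FPKM in all 3 sets, while CD68 was at 1.65 to 3.02 FPKM in the SETDB1 set and 5.11 to 80.3 in L929. Read depth is not known from FPKM, and column sums lay between 445281 and 564049. Nothing in the labels says that replicate libraries came from separate cultures, so the p-values of the SETDB1 set measure the spread between these libraries. Those of the BIX tests below measure the spread between backgrounds.

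Ribosomal protein mRNAs made up a large part of each column. A mean FPKM of at least 1 was reached by 75 members of the SETDB1 set, 61 of the ATG5 set and 79 of the cGAS set. They summed to 16.7% and 16.7% of the FPKM of all genes other than short non-coding RNAs in KO1, 18.2% and 16.2% in KO2, and 16.9% and 18.5% in WT. In the ATG5 set, with fewer members listed, they summed to 13.0% with BIX and 13.6% with mock under the label ATG5 KD, and to 11.5% with BIX and 12.2% with mock in vector. In L929 they summed to 14.2% with BIX and 14.6% with mock under the label cGAS KO, and to 16.6% with BIX and 16% with mock in cGAS WT. The 2 WT libraries differed from each other by more than the WT library with the lower share differed from either KO1 library. FPKM measures a share of the RNA sequenced per base of transcript, so less RNA per cell and fewer cells cannot be told apart, nor can a change in all transcripts alike be seen.

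**Figure D1:**
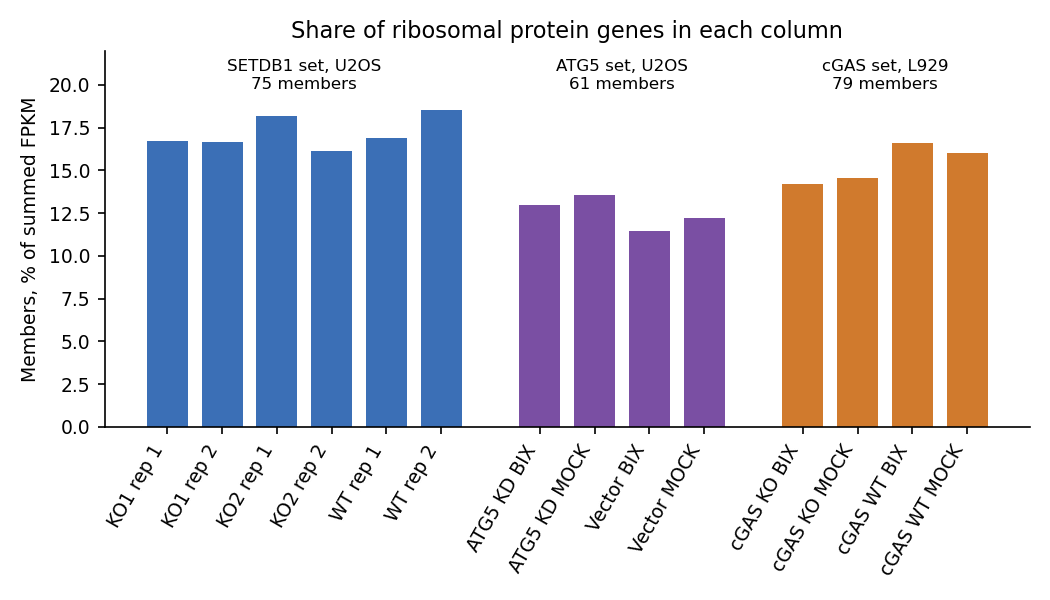
Share of the summed FPKM (%, vertical axis, from 0) taken by the detected members in each of the 14 RNA columns, with 75 members in the SETDB1 set, 61 in the ATG5 set and 79 in the cGAS set. The 2 libraries of KO2 (18.2% and 16.2%) and the 2 of WT (16.9% and 18.5%) span nearly the whole range of that set; heights are comparable within a set only.

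The members with the highest level per length in WT U2OS were RPL41, RPLP1, RPS2, RPS27, RPL13A and RPLP0, of which RPLP0 and RPLP1 belong to the stalk of the large subunit that recruits translation factors. RPL41, the smallest ribosomal protein, had 3865 and 3429 FPKM in KO1, 4428 and 3608 in KO2, and 3566 and 4037 in WT. RPLP1 had 3039 and 3173 FPKM in KO1, 3282 and 2703 in KO2, and 3296 and 3930 in WT. RPS2, a subunit at the mRNA entry side, had 3341 and 3003 FPKM in KO1, 3376 and 3071 in KO2, and 3215 and 3363 in WT. RPS27 followed with 2669 and 3078 FPKM in WT, RPL13A with 2029 and 2632, and RPLP0 with 2176 and 2470. In this order the 2 WT values of RPL41 and RPLP1 overlapped, as did those of RPLP1 and RPS2 and those of RPL13A and RPLP0, while RPS2 stood apart from RPS27 and RPS27 from RPL13A. At the low end stood paralogs. RPL10L had 19.9 and 25.7 FPKM in WT, RPL22L1 16.3 and 23.7, and RPL3L, a paralog of striated muscle, had 0.261 to 0.660 FPKM in the 4 KO libraries and was listed at 0 in each WT library.

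SETDB1 writes H3K9me3, a mark of silenced chromatin, and the first comparison asked whether ribosomal protein mRNAs differ in its knockouts. Most members had a slightly negative difference in the mean of the KOs, as deposited and with equal column sums, and no member passed the test. With quantile normalization the member median in the mean of the KOs was -0.01. The filter on low values left out 4 members, RPL3L, RPS4Y1 and RPS4Y2 among them. Of 74 members tested, 68 had a negative difference, with a median of -0.10 on the log2 scale against -0.01 over all genes. Values were used as log2(FPKM + 1). Under limma with Benjamini-Hochberg adjustment over 12611 genes, 0 members passed in the mean of the KOs, where 3.23% of all genes were called (2.45% higher and 0.777% lower), and 4 members were lower at an unadjusted p under 0.05. In KO1 alone 0 members were called (2.43% of all genes, 1.9% higher and 0.523% lower) and 1 was lower unadjusted, and in KO2 alone 0 were called (2.44% of all genes, 2.01% higher and 0.436% lower) and 3 were lower unadjusted. Between KO1 and KO2, 0 members and 0.0% of all genes were called, and 0 members but 205 of all genes passed unadjusted. All 4 KO libraries lay below both WT libraries for 4 members, RPL10L, RPLP1, RPLP2 and RPS23, which is 4 of 74 beside 11.2% of all genes, and above both for 0 members beside 10.2%.

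Small-subunit members had a median of -0.15 in the mean of the KOs over 27 tested, and large-subunit members -0.09 over 41. RPS12, a small-subunit protein known from the fly as needed for cell competition, had 1494 and 1905 FPKM in KO1, 1808 and 1299 in KO2, and 1867 and 2437 in WT. Its groups overlapped, and its difference was -0.41 (SE 0.184, limma adjusted p = 0.415). RPL34 had 210.0 and 269.5 FPKM in KO1, 251 and 204 in KO2, and 265 and 342 in WT, with a difference of -0.37 (SE 0.142, limma adjusted p = 0.279). RPL9 (-0.35), RPS19 (-0.33), RPL10L (-0.32) and RPS21 (-0.31) completed the 6 lowest, with limma adjusted p between 0.271 and 0.493. RPS19, the gene most often mutated in Diamond-Blackfan anaemia, had 717 and 756 FPKM in KO1, 887 and 657 in KO2, and 881 and 1010 in WT. The 6 highest differences, those of RPL38, RPL26L1, RPS26, RPL39L, RPL41 and RPL35A, lay between 0.00 and 0.08. RPL38, required in the mouse for translation of some Hox mRNAs, had 1302 and 1074 FPKM in KO1, 1291 and 1176 in KO2, and 1068 and 1214 in WT. RPL5 and RPL11, which with an RNA of the large subunit bind MDM2, had 870 to 961 and 1209 to 1505 FPKM in the KOs, against 905 to 1038 and 1287 to 1473 in WT, with overlapping groups.

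The spread between replicate libraries was as large as these differences and was shared by nearly all members. Within WT, replicate 2 was higher than replicate 1 for 72 of 74 members, by a median of 0.21 on the log2 scale, and within KO2 it was higher for 1 of 74, with a median of -0.27. In KO1 the median was -0.02, with 32 of 74 higher in replicate 2. Over all genes these medians lay between 0.02 and 0.03. As deviations from a gene's own mean over the 6 libraries, the member medians were -0.07 and -0.09 in KO1, 0.14 and -0.14 in KO2, and -0.03 and 0.18 in WT, with a pooled SD within groups of 0.143. The median difference of the members between the mean of the KOs and WT therefore moved with single libraries. It was -0.01 without WT replicate 2, -0.21 without WT replicate 1, -0.16 without KO2 replicate 1 and -0.04 without KO2 replicate 2. In KO2 alone the median of -0.07 turned to 0.07 without KO2 replicate 2 and to 0.02 without WT replicate 2, and with quantile normalization it was 0.00.

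**Figure D2:**
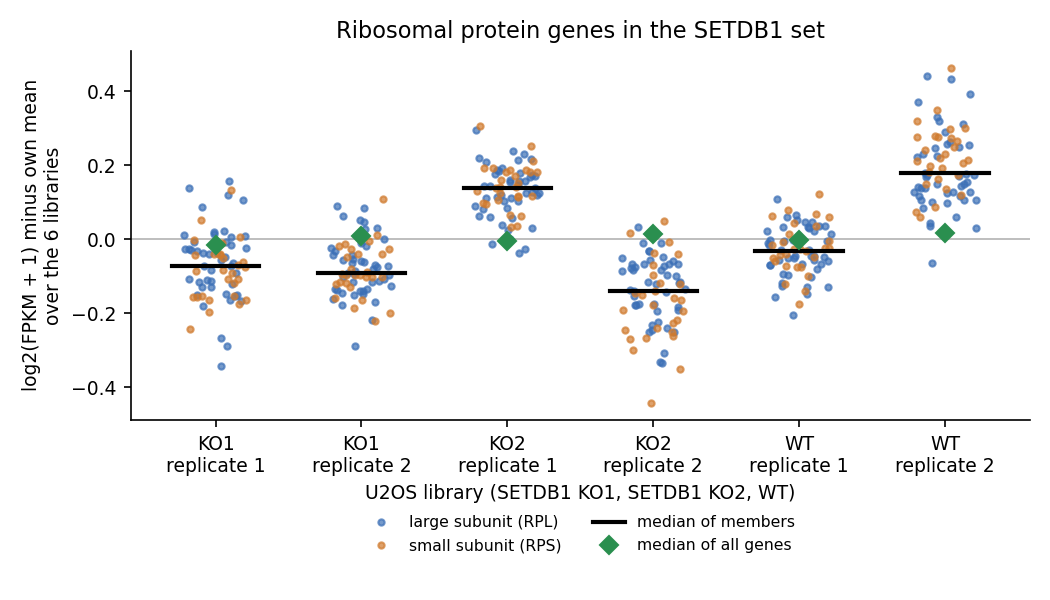
Each point is a member's log2(FPKM + 1) in a U2OS library minus its own mean over the 6 libraries (vertical axis), for 74 members, blue for RPL and orange for RPS names, with the member median as a black bar and the median of all genes as a green diamond. KO2 replicate 1 (0.14) and WT replicate 2 (0.18) stand above the other libraries, and KO2 replicate 2 (-0.14) below, so the replicates of KO2 and of WT lie on opposite sides.

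The second question was whether ribosomal protein mRNAs changed with BIX. Each background (ATG5 KD, vector, cGAS KO, cGAS WT) gave a BIX minus mock difference, and the 4 differences were tested with limma over 10109 genes whose symbols match between human and mouse. Of 59 members, 10 were called higher (11.7% of all genes were called higher) and 0 lower (10.0% of all genes). At an unadjusted p under 0.05, 22 members were higher and 1 lower. Unadjusted counts over all genes are given only for KO1 against KO2. Elsewhere an unadjusted count of members therefore cannot be read as an excess. The share called, 10 of 59, is below the 21.7% of all genes called in either direction. The member median was 0.13 as deposited, against -0.01 over all genes, and it was -0.01 when the columns of a table were scaled to equal FPKM sums, a setting that moved the median of all genes by -0.12 in vector and by -0.22 under the label ATG5 KD. As deposited, members were higher with BIX in all 4 backgrounds in 28 of 59 cases (47.5%, beside 22.9% of all genes) and lower in all 4 in 0 cases (beside 23.6%). This count was not made with equal column sums. That setting lowered the members above 0 from 43 to 24 in vector and from 55 to 25 under the label ATG5 KD. In L929 it lowered them from 67 to 53 in cGAS WT and from 55 to 43 under the label cGAS KO. The 2 backgrounds of a line share that line, so these are not 4 independent lines.

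The called members were the large-subunit genes RPL7, RPL19, RPL24 and RPL26, the small-subunit genes RPS6, RPS7, RPS13 and RPS16, and the paralogs RPL7L1 and RPS27L. RPL24, a protein of the bridge between the subunits, had 1794 FPKM with BIX against 1283 with mock under the label ATG5 KD, and 1329 against 975 in vector. In L929 it had 844 with BIX against 717 with mock under the label cGAS KO, and 1018 against 847 in cGAS WT. It rose by 0.36 on the log2 scale (SE 0.0686, limma adjusted p = 0.0196), and by 0.22 with equal column sums, where it was the only member called higher. RPL19 rose by 0.31 (limma adjusted p = 0.0179) and RPL26, which lies near the exit of the peptide tunnel, by 0.29 (limma adjusted p = 0.0198). RPS7, which binds MDM2, had 696 FPKM with BIX against 488 with mock under the label ATG5 KD and 494 against 361 in vector, but 1191 against 1051 and 1217 against 1101 in the libraries labelled cGAS KO and cGAS WT. It rose by 0.32 (SE 0.0865, limma adjusted p = 0.0464). RPS6, the substrate of the S6 kinases, rose by 0.23 (limma adjusted p = 0.0450), with 1312 FPKM with BIX against 1106 with mock under the label ATG5 KD, 1065 against 884 in vector, 887 against 824 under the label cGAS KO and 1153 against 931 in cGAS WT. RPS13, RPS16 and RPL7 rose by 0.30, 0.27 and 0.23 (limma adjusted p between 0.0251 and 0.0336). Calls were fewer with any background left out, among members and among all genes. Without vector 0 members (18 higher at an unadjusted p under 0.05) and 4.31% of all genes were called, and without ATG5 KD 0 members (11 higher and 1 lower unadjusted) and 3.02% of all genes. Without cGAS KO 3 members and 10.8% of all genes were called, and without cGAS WT 3 members and 11.4%.

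RPS27L, a paralog of the small-subunit gene RPS27, had the largest difference of the called members. It had 352 FPKM with BIX against 225 with mock under the label ATG5 KD, 231 against 178 in vector, 332 against 169 under the label cGAS KO and 310.4 against 256 in cGAS WT. All 4 pairs were higher with BIX, and the difference was 0.57 (SE 0.129, limma adjusted p = 0.0296). RPL7L1, which like its yeast relative acts in the nucleolus in assembly of the large subunit, had 53.8 FPKM with BIX against 40.9 with mock under the label ATG5 KD, 50.8 against 37.8 in vector, 83.9 against 64.8 under the label cGAS KO and 149 against 103 in cGAS WT. It rose by 0.43 (SE 0.092, limma adjusted p = 0.0261). The other paralogs expressed in both lines, RPL22L1 (0.39) and RPL39L (0.26), had positive differences that did not pass (limma adjusted p = 0.0754 and 0.0925). The median was 0.12 over 31 large-subunit and 0.10 over 23 small-subunit members. With equal column sums neither RPS27L (0.42) nor RPL7L1 (0.29) was called.

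RPS28 was the member with the lowest difference. It had 780 FPKM with BIX against 772 with mock under the label ATG5 KD, 637 against 814 in vector, 922 against 1455 under the label cGAS KO and 1133 against 1383 in cGAS WT. It was lower with BIX in 3 of 4 backgrounds, at -0.32 (SE 0.111, limma adjusted p = 0.0867), and with equal column sums it was called lower, at -0.46. RPLP0, often used as a reference gene in quantitative PCR, was at -0.10 (SE 0.0649, limma adjusted p = 0.291), with 1684 FPKM with BIX against 1820 with mock under the label ATG5 KD and 1258 against 1511 in vector, 1451 against 1492 under the label cGAS KO and 1785 against 1761 in cGAS WT. RPL5, which guards against defects of assembly through MDM2, was at 0.12 (limma adjusted p = 0.319). It had 873 FPKM with BIX against 834 with mock under the label ATG5 KD and was lower in vector, at 653 against 667. In L929 it had 499 with BIX against 393 with mock under the label cGAS KO and 470 against 443 in cGAS WT.

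**Figure D3:**
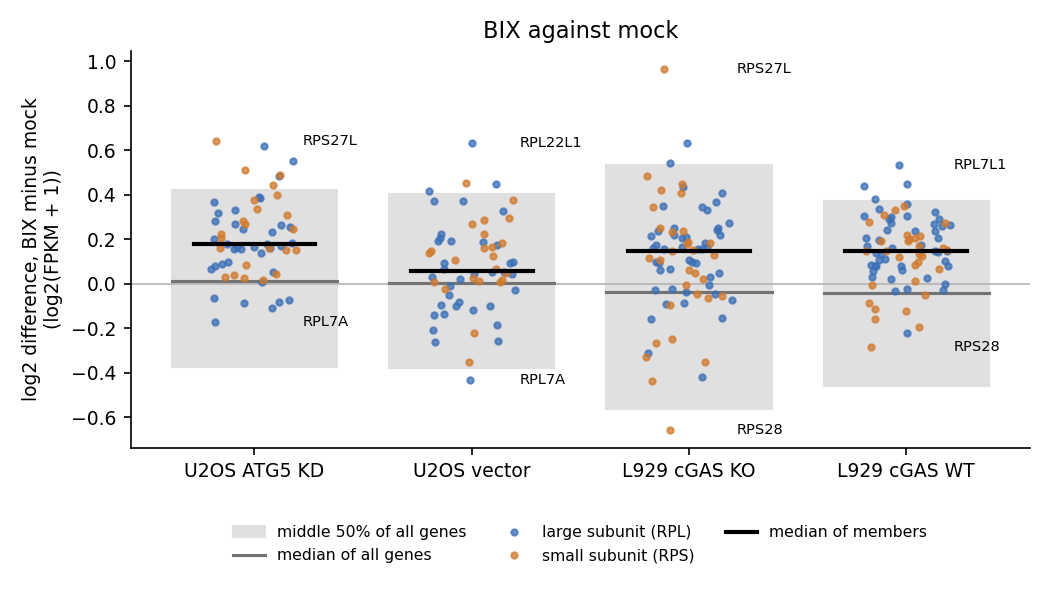
Difference in log2(FPKM + 1), BIX minus mock (vertical axis), for each member in the 4 backgrounds (1 member is not drawn; blue RPL, orange RPS), with the member median as a black bar, the median of all genes as a grey line and the middle 50% of all genes as a grey box. As deposited the member medians lie above 0 in all 4, and with equal column sums those of both U2OS backgrounds lie below 0 (-0.06 and -0.07).

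Taken one background at a time, with 1 value per group and no test, the members are described by how many were at least 0.32 apart on the log2 scale. With BIX in cells labelled ATG5 KD the member median was 0.18 as deposited and -0.06 with equal column sums, and 15 of 61 members were at least 0.32 higher (29.9% of all genes) and 0 lower (28.2%), against 3 higher and 4 lower with equal column sums. In vector it was 0.06 as deposited and -0.07 with equal column sums, with 9 of 61 at least 0.32 higher (29.4%) and 2 lower (28.7%), against 2 higher and 6 lower with equal column sums. In cells labelled cGAS KO it was 0.15 (0.04 with equal column sums), with 14 of 79 higher (33.1%) and 5 lower (36.3%), against 6 higher and 8 lower with equal column sums. In cGAS WT it was 0.15 (0.06 with equal column sums). As deposited 8 of 80 were higher (27.7%) and 0 lower (32.2%), and with equal column sums 3 were higher and 1 lower. That setting moved the median of all genes by -0.10 under the label cGAS KO and by -0.08 in cGAS WT. The shares of all genes given here are as deposited and were not counted with equal column sums. Markers moved with BIX too: COL1A1 fell by 0.84 across the 4 backgrounds (limma adjusted p = 0.00896), and KRT18 differed by 0.62 under the label ATG5 KD and 0.51 in vector. Their part in the members' differences was not tested. Core members whose start had the pyrimidine tract had a median BIX difference of 0.17 under the label ATG5 KD and 0.04 in vector (34 genes), and core members without it 0.25 and 0.16 (11 genes), which is given without a test.

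The BIX response was also compared between the lines, as U2OS minus L929, with 2 backgrounds each. Here 1 member of 59 was called, beside 26.7% of all genes (15.4% higher and 11.3% lower), and 8 members were higher and 3 lower at an unadjusted p under 0.05. RPL22L1, a paralog of RPL22, had 26.3 FPKM with BIX against 16.8 with mock under the label ATG5 KD and 22.2 against 14 in vector. In L929 it had 214 with BIX against 188 with mock under the label cGAS KO and 268 against 242 in cGAS WT. Its BIX difference was 0.62 and 0.63 in the U2OS backgrounds and 0.18 and 0.15 in the L929 backgrounds, so U2OS exceeded L929 by 0.46 (SE 0.112, limma adjusted p = 0.0453). RPL7A moved in opposite directions, with 1268 FPKM with BIX against 1428 with mock under the label ATG5 KD, 841 against 1138 in vector, 1383 against 1188 under the label cGAS KO and 2061 against 1868 in cGAS WT. Its U2OS minus L929 difference was -0.48 (SE 0.125, limma adjusted p = 0.0513). With equal column sums RPL22L1 was not called, while RPL7A, RPL10A, RPS23 and RPL41 were called lower in U2OS than in L929 (-0.57, -0.52, -0.49 and -0.34). These 4 calls among 59 members stood beside 25.6% of all genes called under that setting.

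The ATG5 set also asks whether an autophagy gene's knockdown goes with other levels of these mRNAs, with the caution that ATG5 RNA did not bear out the label. Members were higher under the label ATG5 KD than in vector, in mock and with BIX, as deposited and with equal column sums. With mock the member median was 0.27, against 0.01 over all genes, and 22 of 61 members were at least 0.32 higher (8.02% of all genes) and 1 lower (7.73%). With BIX it was 0.39, against 0.03 over all genes, with 41 of 61 at least 0.32 higher (16.6%) and 0 lower (11.7%). Equal column sums lowered these medians to 0.16 and 0.18 and the counts at least 0.32 higher to 3 and 10. The same setting moved the median of all genes by -0.09 with mock and by -0.19 with BIX. Members and all genes thus shifted down together, and shares of all genes were counted as deposited only. Of 60 members compared, 58 were higher under both treatments, and the same count over all genes was not made. RPL21 had 1194 FPKM in the mock value labelled ATG5 KD, against 791 in vector mock, and with BIX 1486 against 1023. RPL27A had 117 FPKM in the mock value labelled ATG5 KD, against 83.0 in vector mock, and with BIX 133 against 77.6. RPS28 and RPL7L1 were among those that moved least, at -0.08 with mock for RPS28 and at 0.08 with BIX for RPL7L1. The 22 joined ribosomal protein loci had medians of 0.29 and 0.47. Mitochondrial ribosomal protein genes, which serve the separate ribosome of mitochondria, had medians of 0.23 and 0.27 over 67 genes. The mesenchymal marker COL1A1 was lower under the label ATG5 KD, with log2 differences of -0.75 in mock and -0.75 with BIX. The other mesenchymal markers were divided under both treatments. SPARC (385 FPKM against 448 in mock) and RUNX2 were lower under that label, while VIM (1041 against 964 in mock) and CDH2 were higher. The epithelial keratin KRT18 was higher under that label by 0.71 in mock and 0.82 with BIX, and KRT8 by 0.34 and 0.43. The vector mock column had the lowest FPKM sum of the set. The part of these in the difference was not tested beyond the equal-sum setting.

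In L929, members were lower in the libraries labelled cGAS KO than in cGAS WT, as deposited and with equal column sums. With mock the member median was -0.28, against -0.03 over all genes, and 34 of 80 members were at least 0.32 lower (24.1% of all genes) and 2 higher (22.2%). With BIX it was -0.28, against 0.03 over all genes, with 34 of 79 lower (26.5%) and 3 higher (30.2%). With equal column sums the medians were -0.16 and -0.18 and the counts at least 0.32 lower 11 and 24. This setting moved the median of all genes by 0.11 with mock and by 0.09 with BIX, and shares of all genes were not counted under it. Of 78 members compared, 62 were lower under both treatments and 6 were higher under both, again without a count over all genes. RPS2 had 2495 FPKM in the mock library labelled cGAS KO, against 4036 in cGAS WT mock, and with BIX 2605 against 4464. RPL12 had 1813 FPKM in the mock library labelled cGAS KO, against 2977 in cGAS WT mock, and with BIX 2022 against 3355. RPL13 and RPL15 went the other way. RPL13 had 1199 FPKM in the mock library labelled cGAS KO, against 784 in cGAS WT mock, and with BIX 1174 against 842. RPL15 had 291 FPKM in the mock library labelled cGAS KO, against 212 in cGAS WT mock, and with BIX 386 against 277. Mitochondrial ribosomal protein genes were lower as well, with medians of -0.32 and -0.24 over 74 genes. The fibroblast collagens Col1a1 and Col1a2 were higher under the label cGAS KO, by 2.20 and 3.27 in mock and by 1.99 and 3.44 with BIX. Other fibroblast markers did not follow them. Pdgfrb was at 35.8 FPKM against 65.7 in mock and 45.8 against 59.0 with BIX. S100a4 was at 3075 against 3953 in mock and 2932 against 3199 with BIX. Vim was at 1780 against 1756 in mock and 1183 against 1308 with BIX, and Thy1 was at 0. The macrophage marker Cd68 was lower under that label, at 5.11 FPKM against 41.2 in cGAS WT in mock and at 29.6 against 80.3 with BIX. Ptprc was below 1 FPKM in all 4, and the part of such differences between the cultures was not tested.

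**Figure D4:**
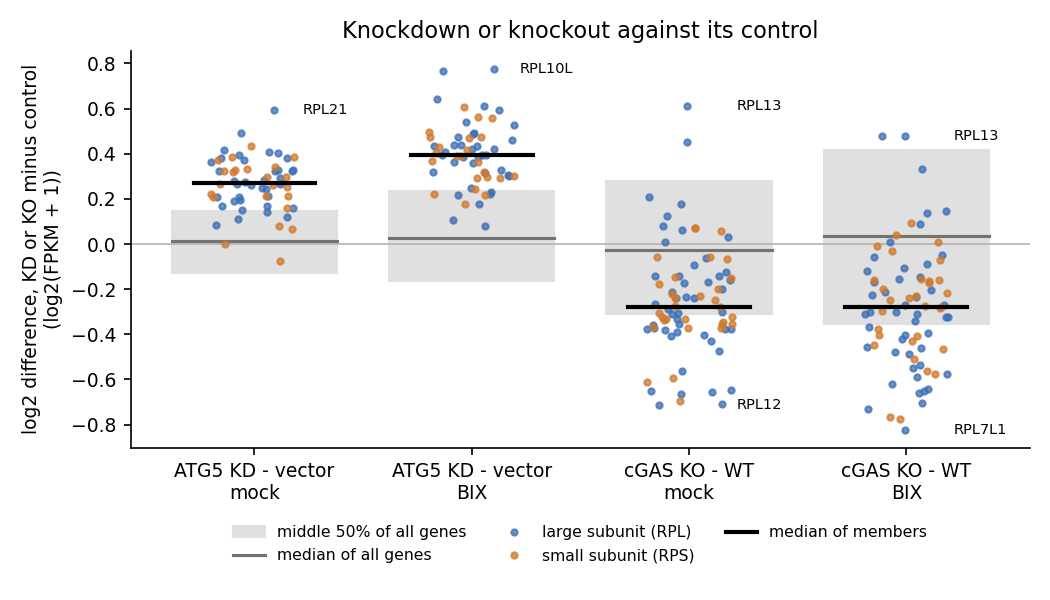
Difference in log2(FPKM + 1) between ATG5 KD and vector and between cGAS KO and cGAS WT, by the labels (vertical axis), in mock and in BIX, for each member (1 member is not drawn; blue RPL, orange RPS), with the member median as a black bar, the median of all genes as a grey line and the middle 50% of all genes as a grey box. Member medians are 0.27 and 0.39 for the U2OS pair and -0.28 and -0.28 for the L929 pair, and keep these signs with equal column sums.

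The level of a paralog beside the gene it resembles is given per line, since human and mouse tables were quantified separately. RPL22L1 stood at 16.4% of RPL22 with BIX and 11.8% with mock under the label ATG5 KD, and at 18.9% with BIX and 12.3% with mock in vector. In L929 it stood above RPL22, at 434% with BIX and 600.0% with mock under the label cGAS KO, and at 482% with BIX and 480.0% with mock in cGAS WT. RPL22 itself had 160.1 FPKM with BIX and 142 with mock under the label ATG5 KD, but 49.3 with BIX and 31.4 with mock under the label cGAS KO. RPL39L, known from male germ cells and tumours, stood at 5.75% and 6.05% of RPL39 with BIX and mock under the label ATG5 KD, at 21.0% and 22.2% under the label cGAS KO, and at 41.6% and 35.1% in cGAS WT. RPL10L, a retrocopy of RPL10 expressed in testis, had 25.4 FPKM with BIX against 17.0 with mock under the label ATG5 KD and 14.4 against 12.5 in vector, and was listed at 0 in all 4 L929 libraries. It is near-identical to RPL10, so reads may be shared between them. RPS27L stood at 7.88% to 8.53% of RPS27 in the SETDB1 set, at 15.3% with BIX and 8.56% with mock under the label cGAS KO, and at 12.2% with BIX and 10.1% with mock in cGAS WT.

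**Figure D5:**
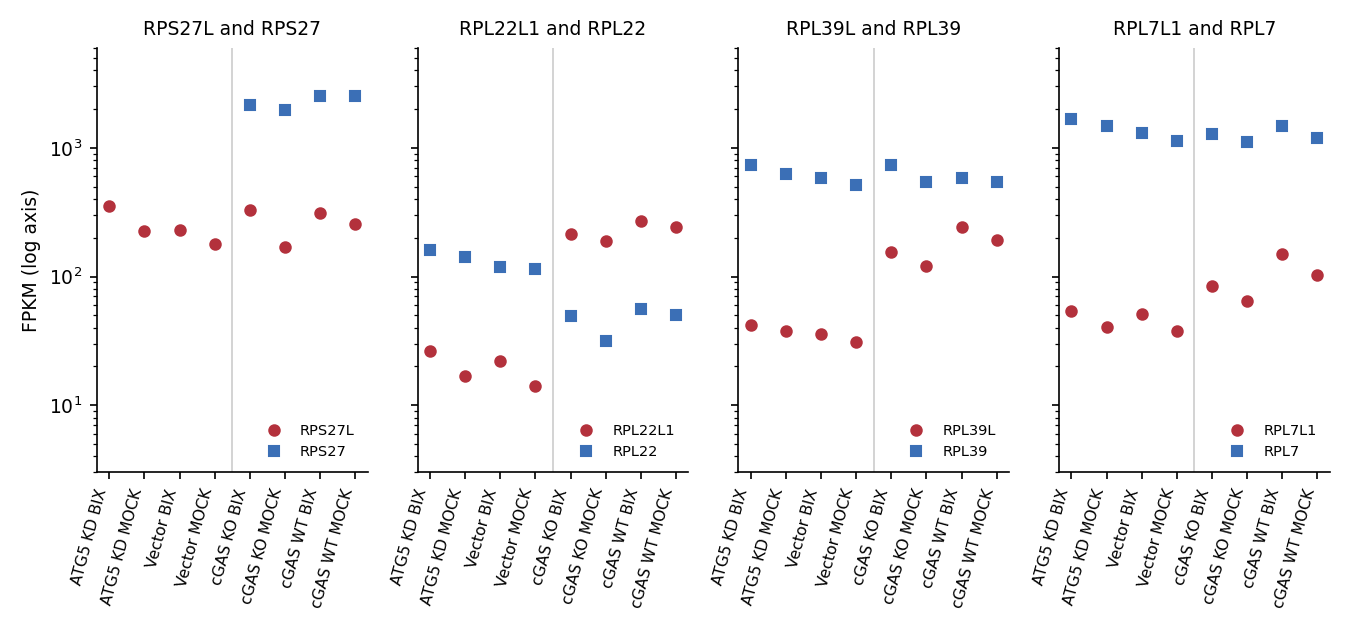
FPKM on a log axis of 4 paralogs (circles) and the genes they resemble (squares) in the 8 columns of the ATG5 and cGAS sets, BIX left of mock within each background and U2OS left of L929. RPL22L1 lies below RPL22 in U2OS (26.3 and 160.1 FPKM in ATG5 KD with BIX) and above it in L929 (214 and 49.3 in cGAS KO with BIX); RPS27 is not drawn for U2OS, where it was listed only within a joined locus.

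A single library stood apart at a joined locus. The joined locus of RPL13 and SNORD68 had 1519 FPKM in KO1 replicate 2 and 201 to 275 FPKM in the other 5 libraries of the set. Ribosomal protein genes have many processed pseudogenes with near-identical sequence, and how shared reads were assigned, and whether the libraries keep strand, the labels do not state.

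Other genes of the pathway were read in the same BIX test. Their calls are given as deposited with all 4 backgrounds, and not with equal column sums or a background left out. Of 14 chaperone and assembly genes tested across the 4 backgrounds, 9 passed as higher and 0 as lower, beside 11.7% and 10.0% of all genes (10 higher at an unadjusted p under 0.05), and their median was 0.55. SBDS, which releases EIF6 from the large subunit, rose by 1.26 (limma adjusted p = 0.00634), with 186 FPKM with BIX against 70.4 with mock under the label ATG5 KD and 124 against 50.2 in vector. RRS1 (1.07), which brings the RPL5 and RPL11 complex into the large subunit, NMD3 (0.94), its export adaptor, and RIOK2 (0.64), a kinase of small-subunit maturation, rose as well (limma adjusted p between 0.00816 and 0.0251). Of 14 regulators, 4 were called higher and 1 lower (28.6% and 7.14% of the list). MYC, an activator of ribosome biogenesis genes, rose by 2.47 (limma adjusted p = 0.00439), with 188 FPKM with BIX against 27.8 with mock under the label ATG5 KD, 167 against 21.8 in vector, 248 against 58.3 under the label cGAS KO and 456 against 96.4 in cGAS WT. MAX, its partner, rose by 1.26 and YY1 by 1.05, while EIF4EBP2, a repressor of cap-dependent translation under mTOR, fell by 0.92 (limma adjusted p = 0.0158). Of 13 translation factors and other genes with TOP mRNAs, 3 passed as higher (23.1%, beside 11.7% of all genes) and 0 as lower (4 and 1 unadjusted), and their median was 0.04. These were NPM1 (0.65), BTF3 (0.50) and EIF3E (0.35). Of 66 mitochondrial ribosomal protein genes, 2 passed as higher and 4 as lower (3.03% and 6.06%, both below the shares of all genes), and their median was -0.02. Their BIX median was 0.15 under the label ATG5 KD and 0.08 in vector, but -0.21 under the label cGAS KO and -0.25 in cGAS WT, and 16 of 66 were called higher in U2OS than in L929 (15.4% of all genes) and 0 lower. FAU, a ribosomal protein made as a fusion with a ubiquitin-like protein and not matched by the name rule, was at 0.27 with BIX (limma adjusted p = 0.0584). In the SETDB1 KOs, 0 genes of these lists were called, against 3.23% of all genes, and 2 were lower at an unadjusted p under 0.05.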

How the data were processed

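RNA abundance was analysed in 14 RNA samples. Per the submitters' processing notes, reads were checked with FastQC, trimmed with cutadapt, aligned to hg19 or mm10 with TopHat2, and quantified with Cufflinks. The labels state no versions, options, annotation or strandedness. The authors deposited FPKM per gene, and these deposited FPKM values were used as they stood. All value columns were mapped to samples (0 left unused). Read counts cannot be recovered. Precision is given by replicate spread in the SETDB1 set and by the spread between backgrounds in the BIX tests.

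A symbol listed more than once was taken at its entry with the highest mean. Short non-coding RNA genes were left out. FPKM was used as log2(FPKM + 1). The SETDB1 groups were fitted in 1 model with limma 3.58.1 (trend) under R 4.3.3, on genes that reached an FPKM of 1 in at least 2 libraries, and called at a Benjamini-Hochberg adjusted p below 0.05. The BIX minus mock differences of the 4 backgrounds were tested with limma against 0 and between the lines. The 8 comparisons of single values have no test: members with an FPKM of at least 1 were counted at a log2 difference of 0.32. The fit was tested on simulated data.

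Named members are the 6 highest in WT U2OS, the 6 largest differences in each direction in the mean of the SETDB1 KOs, all members called, the 3 largest in each direction in single comparisons (FPKM of at least 5), paralogs with the genes they resemble, RPL5, RPL11 and RPS6, and 4 genes per other list. Of these, examples are given. RPS4Y1 and RPS4Y2 are counted without values. RPLP2, RPS23 and RPL10A are named for counts of 5 or fewer. The members and lists were chosen with earlier results of these data known. Alternatives were the pseudocount (0.1), centring, quantile normalization, filters, duplicate and joined entries, a replicate block, leaving out libraries or backgrounds and, added after seeing the data, equal column sums and leaving out 1 member. A few items are not reported here.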

Additional observations from a re-analysis of the deposited data

Results flagged for a closer look

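The BIX response of RPL22L1 differed between the lines by the test of the difference itself: U2OS minus L929 was 0.459 on the log2 scale (limma adjusted p = 0.0453), with BIX higher than mock in 4 of 4 backgrounds. RPL22L1 was the only member called of 59, beside 26.7% of all genes. It was no longer called with equal column sums (0.38) or without either U2OS background (0.45 and 0.47), settings that leave a lone U2OS value assumed to vary like the L929 pair. In none of the sets did a group hold 4 or more libraries, so no search for outlying libraries within a group was made.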

How the results depend on the processing

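In the SETDB1 set, 0 members were called in any contrast under any alternative, the replicate block included, and the member median in the mean of the KOs was -0.10 with the block as without it. Same-numbered libraries paired unevenly, by the correlation of replicate differences over 12611 genes. It was 0.375 between KO1 and WT, 0.202 between KO1 and KO2, and 0.004 between KO2 and WT. For the KO mean against WT, the block raised the share of all genes called from 3.23% to 4.03%. Leaving out each library in turn, that median ranged from -0.21 to -0.01, in KO1 from -0.26 to -0.04, in KO2 from -0.20 to 0.07, and for KO1 against KO2 from -0.23 to 0.068. Members called with BIX across the 4 backgrounds numbered 2 with equal column sums (RPL24 higher, RPS28 lower; 25.6% of all genes called) and 0 to 3 with a background left out (3.02% to 11.4% of all genes), and 10 or 11 under the other settings. Members called between the lines numbered 3 at an FPKM of at least 5 (RPL22L1 and RPL7A among them), beside 27.7% of all genes. With equal column sums they numbered 4, beside 25.6% of all genes. Leaving out a background leaves a line with 1 value, so counts called between the lines are not given for those fits. With equal column sums the member median was -0.060 for BIX under the label ATG5 KD and 0.18 for ATG5 KD against vector with BIX. In no result did a called value change sign; the causes of these shifts were not tested. FPKM without counts limits what low members such as RPL3L can show.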
